A study of Rattus norvegicus with 3 samples.

Results

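Dor, the product of Tp53inp2, was mapped on chromatin with CUT&Tag, a method that guides a transposase by an antibody to the protein and sequences the DNA released around it. The regions described here carried a Dor peak in rat oligodendrocyte precursor cells (OPC) and in immature oligodendrocytes (iOL, D1) and had none in mature oligodendrocytes (mOL, D3). They were chosen by the authors' peak calls alone: the peaks of the 3 lists on chromosomes 1 to 20 were pooled, those that overlapped by at least 1 base were joined, and a region was kept if it held an OPC and an iOL peak and no mOL peak. Of 254448 regions formed in this way, 1639 met the rule, 0.644% of the total. All coordinates are on rn5 and are counted from 1.

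Each stage had 1 library, made with the same rabbit antibody against Dor. The precursors were primary rat cells, shaken off mixed glial cultures that had been kept in B104 conditioned medium, and they were expanded in Sato medium that held 10 ng/ml PDGF-AA and 20 ng/ml bFGF. For differentiation the Sato medium held 15 nM T3, a thyroid hormone, and 10 ng/ml CNTF, and the labels list T3 as the treatment of the iOL and mOL libraries alone. No genotype, strain, sex or age is given in the sources used here, and the peak names contain the word pool without saying what was pooled. No control library was analysed here, so the signal that an untargeted antibody would leave at these regions is unknown. With 1 library per stage no test between stages was possible, so every difference below is one between libraries.

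Dor is known as a protein that shuttles between nucleus and cytoplasm. In the nucleus it acts as a coactivator of nuclear receptors, the thyroid hormone receptor among them, and in the cytoplasm it takes part in the formation of autophagosomes. Thyroid hormone is a classical signal for oligodendrocyte precursors to leave the cell cycle and differentiate, and precursors express its receptor before they do so. A coactivator reaches DNA through the proteins it binds, so a CUT&Tag peak of Dor is read as a place where it lies near chromatin. Without a control library this reading was not tested at the regions described here. Genes were not assigned to the regions and no sequence is shown, since a genome or annotation of rn5 was not used here.

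The signal of a peak is given in 3 ways. The fold is the authors' own linear ratio of summit signal over the background around the peak. The pileup is the number of fragments over the summit base, recovered from the deposited fold and p. The strength is that pileup over the genome background, a value of 1.47 fragments per base for OPC, 0.540 for iOL and 1.83 for mOL. The weakest peak that could be called had 9 fragments in OPC (6.11 times the background), 6 in iOL (11.1 times) and 10 in mOL (5.47 times). The lists held 62263 OPC, 57276 iOL and 160142 mOL peaks on chromosomes 1 to 20.

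The regions found in OPC and iOL but not in mOL had Dor peaks of about the usual strength for each library, well below those of regions kept in all 3. Their OPC peaks had a median pileup of 14 fragments (9 to 108) and a median strength of 9.50. Their iOL peaks had a median pileup of 9 fragments (6 to 36) and a median strength of 16.7. In the 4384 regions that also had an mOL peak, the medians were 40 fragments and a strength of 27.1 in OPC, and 16 fragments and a strength of 29.6 in iOL. The mOL peaks of those regions had a median strength of 36.6. Over all peaks of the lists the median strength was 8.82 in OPC and 14.8 in iOL, and in regions of 1 library it was 8.14 for OPC alone and 14.8 for iOL alone. These strengths come from the same calls as the rule, so they describe the members and support nothing further.

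Many members, like many peaks of the lists at large, lay next to the limit of detection. The OPC peak had exactly 9 fragments in 196 members (11.96%) and at most 11 in 483 (29.5%), against 15.1% and 36.3% of all OPC peaks. The iOL peak had exactly 6 fragments in 300 members (18.3%) and at most 8 in 791 (48.3%), against 22.02% and 56.0% of all iOL peaks. For these members, a few fragments fewer would have left no peak to call. Members with a strength of at least 10 in both libraries numbered 798 (48.7%), and those with at least 20 numbered 97 (5.92%). Those with at least 30 numbered 23 (1.403%) and those with at least 50 numbered 2 (0.122%). Of the regions with an mOL peak, 94.8%, 59.97%, 29.01% and 6.68% reached these strengths, in the same order. The weakest callable iOL strength was 11.1, so the count at 10 rests on the OPC strength alone.

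**Figure D1:**
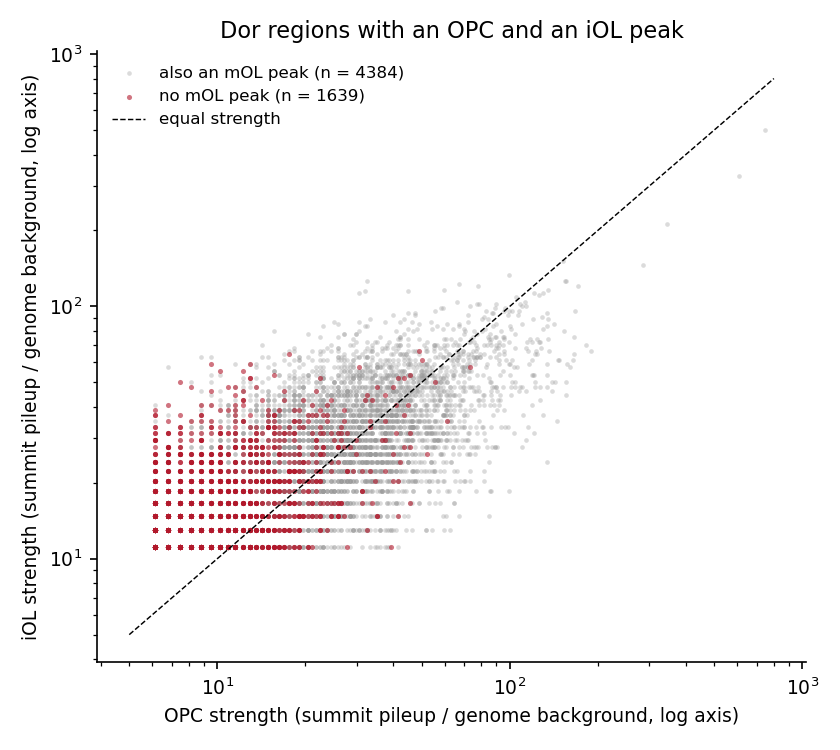
Strength (summit pileup over the genome background, log axes) of the strongest OPC peak and the strongest iOL peak in each region that had both; red points had no mOL peak (1639) and grey points had one (4384), and the dashed line marks equal strength. The red points gather in the lower left, near the weakest callable strengths of 6.11 in OPC and 11.1 in iOL, with a few among the stronger grey points.

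The share of regions without an mOL peak was set against the share in the libraries as a whole. Of the 6023 regions with an OPC and an iOL peak, 27.2% had no mOL peak (95% Clopper-Pearson interval 26.1 to 28.4%). Of all 62141 regions with an OPC peak, 77.3% had no mOL peak, and of all 57209 regions with an iOL peak, 84.0% had none. A region seen in both earlier libraries therefore had an mOL peak more often than a region of either library taken at large. Because these shares rest on the calls that define the members, they are given as a description. All intervals here cover counting error only, since fragments without molecular identifiers are not independent molecules.

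The share without an mOL peak fell at each step of OPC strength. Among regions with an OPC and an iOL peak, it was 85.0% (81.8 to 87.9%) for the 568 with an OPC strength under 8. It was 59.6% (54.8 to 64.3%) of 431 regions at strengths of 10 to 12, and 19.4% (16.7 to 22.4%) of 787 at 15 to 20. At 30 to 50 it was 3.36% (2.42 to 4.53%), which was 41 of 1220 regions. At 50 or more, 5 of 682 regions had no mOL peak, 0.733% (0.238 to 1.70%). Strong sites shared by precursors and immature cells were thus seldom without a peak in the mature cells.

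The same order was found by iOL strength. The share was 68.6% (64.1 to 73.0%) for 437 regions with an iOL strength of 10 to 12, 22.2% (20.3 to 24.2%) for 1747 at 20 to 30 and 2.402% (1.38 to 3.87%) for 666 at 50 or more. Each library's strength kept a relation to the share when the other was held in a range. At an OPC strength of 10 to 15, the share was 65.6% (60.5 to 70.4%) with an iOL strength of 10 to 15 and 33.1% (29.0 to 37.4%) with one of 20 or more. At an iOL strength of 20 or more, it was 66.6% (60.8 to 72.0%) with an OPC strength under 10 and 3.56% (2.89 to 4.32%) with one of 20 or more.

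At equal OPC strength, a region that also had an iOL peak was without an mOL peak less often than one that had no iOL peak. At OPC strengths of 20 to 30, the share was 7.83% (6.38 to 9.48%) of 1214 regions with an iOL peak and 28.6% (26.8 to 30.6%) of 2218 regions without one. At 12 to 15 the shares were 39.8% (36.0 to 43.8%) and 77.8% (76.8 to 78.8%). Regions of equal iOL strength gave the same order, as at 30 to 50, where 8.20% (6.93 to 9.63%) of 1658 regions with an OPC peak and 78.9% (76.6 to 81.0%) of 1345 without one had no mOL peak. The intervals did not overlap in any range of strength. Regions of the same libraries are not replicates, so this describes the lists and is no test. The intervals came closest at an OPC strength of 50 or more, where 5 of 682 regions with an iOL peak (0.733%) and 8 of 179 without one (4.47%, 1.95 to 8.62%) had no mOL peak. Joined regions are wider than single peaks and so meet an mOL peak more easily, and the part of width in these gaps was not tested.

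**Figure D2:**
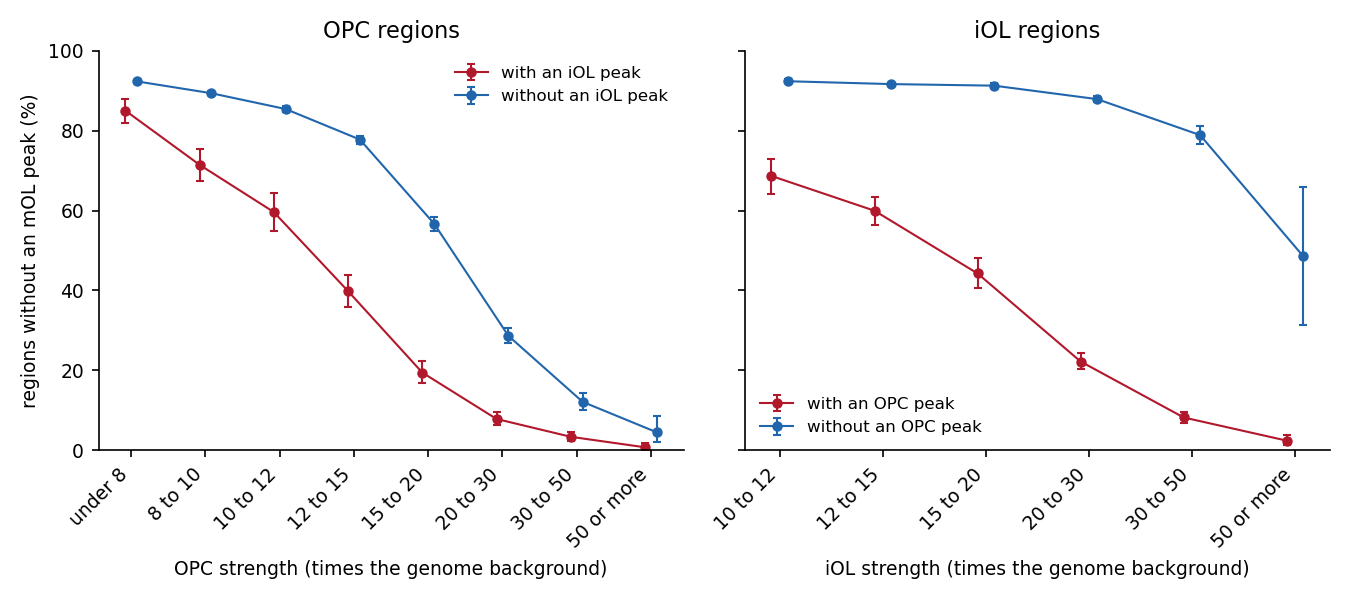
Share of regions without an mOL peak (%, with exact 95% intervals) by the strength of the OPC peak (left) and of the iOL peak (right), for regions with (red) and without (blue) a peak of the other early library. The red points fall from 85.0% to 0.733% with OPC strength and lie below the blue points in each range.

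The balance between OPC and iOL leaned to iOL in the members. Over all peaks of the lists the median strength was likewise higher in iOL, at 14.8, than in OPC, at 8.82. A lean to iOL was thus not particular to the members. The iOL strength was above the OPC strength in 1419 of 1639 members (86.6%), with a median ratio of 1.68, against 57.5% and a median of 1.10 in the regions with an mOL peak. An iOL strength at least 2 times the OPC strength was found in 541 members (33.0%), where the background over all regions with both peaks was 19.7%. The reverse, an OPC strength at least 2 times the iOL strength, was found in 10 members (0.610%), where the background was 5.16%. Next to these values stands the higher limit of the iOL list, whose weakest callable peak was 11.1 times its background and that of the OPC list 6.11 times, so that the weakest possible member has a ratio above 1. The part of this limit in the ratio was not tested. The Spearman coefficient between the strengths was 0.292 across the 1639 members and 0.493 across the 4384 regions with an mOL peak. Each coefficient is across regions of the same libraries, which are not replicates.

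At the OPC end of this range, the member chr10:104306267-104306693 had 58 fragments in OPC and 6 in iOL, strengths of 39.4 and 11.1. The member chr9:14436013-14436950 had 61 and 8 fragments (strengths of 41.4 and 14.8), with an OPC fold of 15.6. On chr16:83286218-83287098 there were 67 and 9 fragments (strengths of 45.5 and 16.7). In each of these the iOL peak stood at or within 3 fragments of the weakest callable, while the OPC peak was strong. At the iOL end, chr5:147540905-147541573 had 11 fragments in OPC and 27 in iOL, strengths of 7.46 and 49.98. On chr13:17218114-17218736 the OPC peak had 9 fragments and the iOL peak 21, strengths of 6.11 and 38.9. On chr14:99319815-99320605 they had 14 and 32, strengths of 9.50 and 59.2. These last members were strong in immature cells and near the limit in precursors.

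Members were compact. Of the 1639, 1636 consisted of 1 OPC peak and 1 iOL peak. The joined region had a median width of 623 bases (313 to 1488). Regions of the other pairs of libraries had 652 bases (iOL and mOL) and 747 bases (OPC and mOL), and those of all 3, which join a further peak, 1063.5 bases. The OPC peaks of the members had a median width of 404 bases and the iOL peaks 397, against 702.5 and 469 where an mOL peak was present. In regions of 1 library the medians were 387 for OPC alone and 384 for iOL alone. Over all peaks of the lists they were 397 in OPC and 388 in iOL. Part of the gap to the regions with an mOL peak went with strength. At an OPC strength of 8 to 10 the OPC peaks were 386 bases wide in members and 422 in regions with an mOL peak, and at 20 to 30 they were 591 and 694. At 30 to 50 the medians were 619 and 805 bases.

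The local background at the members was also low. It stood at the genome background, within 1%, in 945 members in OPC (57.7%) and 846 in iOL (51.6%). In the regions with an mOL peak it did so in 7.09% and 11.8%. It reached at least 3 times the genome background in 82 members in OPC (5.003%), against 36.4% of the regions with an mOL peak. The median local background was at the genome value in the members and likewise in regions of OPC alone, of iOL alone and, for its iOL peak, of iOL and mOL. In OPC it was 1.27 times that value in regions with OPC and mOL peaks only, and 2.43 times in those with all 3 peaks. A median at the genome value was thus not particular to the members. A raised local background lowers the fold at a given pileup. The member with the highest local background, chr7:26861096-26861611, had 66 OPC fragments on a local background 13.1 times the genome value, and its fold was 3.29. In iOL that region had 22 fragments and a fold of 5.39.

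The position of the summit was not used by the rule, which takes peak borders alone. The overlap it requires still limits how far apart the summits can lie, so the distance is a description. In the members the OPC and iOL summits lay a median of 186 bases apart (175 to 196), and 28.3% (26.1 to 30.6%) lay within 100 bases. In the regions with all 3 peaks the median was 171 bases (164 to 179) and 33.1% (31.7 to 34.5%) lay within 100 bases, although those peaks were wider. Taken over the mean width of the pair, the median distance was 0.429 in the members and 0.276 in the regions with all 3 peaks. Regions with an iOL and an mOL peak alone were close to the members, with a median of 194 bases (188 to 201) and a value over width of 0.442. Regions with an OPC and an mOL peak alone had 173 bases (169 to 177) and 0.324.

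The distance was also taken by strength. Where both strengths were at least 20, the median distance was 146 bases (125 to 184) over 97 members, and it was also 146 bases (139 to 156) over 2629 regions with an mOL peak. Over width these were 0.293 for the members and 0.222 for the regions with an mOL peak. Where the OPC strength was under 8, the median was 191 bases (176 to 209) over 483 members and 254 bases (197 to 310) over 85 regions with an mOL peak. Over width these were 0.484 for the members and 0.647 for the regions with an mOL peak, the reverse of the order among strong regions. With few fragments behind a summit, a shift of the site and an uncertain summit cannot be told apart.

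The overlap of the OPC and iOL peaks had a median of 246 bases (1 to 834), or 66.7% of the narrower peak. At the edge of the rule, 60 members overlapped by at most 10 bases, and 29 neighbouring OPC and iOL peaks without an mOL peak missed each other by a gap of at most 10 bases. Just inside, chr1:235959380-235960228, chr1:275827432-275828246 and chr2:143593725-143594446 each overlapped by 1 base. Their pileups were 11 and 8, 9 and 10, and 11 and 8 fragments in OPC and iOL. Just outside, an OPC peak of 59 fragments at chr2:138411207-138411730 was parted from an iOL peak of 13 fragments by a gap of 1 base. Gaps of 1 base also parted an OPC peak of 15 and an iOL peak of 8 fragments, the former at chr3:33807382-33807879, and peaks of 10 and 9 fragments, the OPC one at chr5:91943611-91943965. The pairs on either side of the edge were much alike, except for the strong OPC peak on chromosome 2.

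The largest overlap was 834 bases, in chr4:224663352-224664353, where OPC had 51 fragments and iOL 11. The next, chr2:272869840-272870794, overlapped by 805 bases with 22 and 15 fragments. The member chr7:122955524-122956796 overlapped by 727 bases with 35 and 9 fragments. The widest member was chr11:74453008-74454495, of 1488 bases, which was also the strongest. The widths of chr1:262240217-262241670 (1454 bases, 31 OPC and 14 iOL fragments) and chr8:118184178-118185620 (1443 bases, 16 and 6 fragments) came next. The last of these reached its width through an overlap of only 76 bases, so a wide member was not always a wide site.

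The absence of an mOL peak says more where the mOL library could have shown one. The lower 95% Poisson limit of each pileup was scaled by the ratio of the genome backgrounds, and a member counted as callable if the scaled signal, over the equally scaled local background, would be called in mOL with a probability of at least 0.99. From their OPC peak 159 members were callable (9.70%), from their iOL peak 363 (22.1%), and from both 73 (4.45%, 3.51 to 5.57%). Of the regions with an mOL peak, 2221 were callable from both peaks (50.7%). From both peaks taken jointly, the mOL library would thus not have been sure to show a peak in most members at unchanged signal over background. This criterion is strict. At the measured strengths, with no allowance for counting error, all 1639 members stood above the weakest strength callable in mOL, from the OPC and from the iOL peak. The excess was at least 2-fold in 477 members (29.1%) from OPC and in 1556 (94.9%) from iOL. The weakest callable OPC and iOL strengths, 6.11 and 11.1, were already above the 5.47 of mOL. Among all regions callable from both early peaks, 3.18% (2.50 to 3.98%) had no mOL peak. A further 376 members were callable from either the OPC or the iOL peak and not from the other. For members callable from neither, the missing mOL peak does not show a lower signal, and calling them lost in mature cells goes beyond what the lists can show.

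Mitochondrial fragments enter the genome background and made up an estimated 28.2% of the coverage in OPC, 37.9% in iOL and 19.4% in mOL. With them left out, 105 members were callable from both peaks. With the genome background used in place of the local one, the number was 139.

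The 73 callable members were spread over 19 of the 20 chromosomes. Their OPC pileups ran from 24 over a median of 37 to 108 fragments, and their iOL pileups from 12 over 17 to 36. Their strengths had medians of 25.1 in OPC and 31.5 in iOL. The weakest peak the mOL library could have called at these places had a median strength of 8.20 (5.47 to 20.8), if its local background scaled with the genome background. The lower of the OPC and iOL strengths was at least 2 times that limit in 71 of the 73 members and at least 3 times in 28, with a median of 2.84 and a highest value of 4.26. These ratios describe regions chosen for having no mOL peak and are no bound on a change in signal. The scaling itself was not met where it can be seen: in the regions with all 3 peaks, the median local background was 3.62 times the genome value in mOL, 2.43 times in OPC and 2.05 times in iOL. A higher local background in mOL raises the limit. The iOL strength was above the OPC strength in 56 of the 73 callable members, against 1419 of all 1639 members (86.6%). The OPC and iOL summits lay within 100 bases of each other in 31 of the 73. Over all members this held in 464 (28.3%), and in 31 (32.0%) of the 97 with both strengths at least 20.

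**Figure D3:**
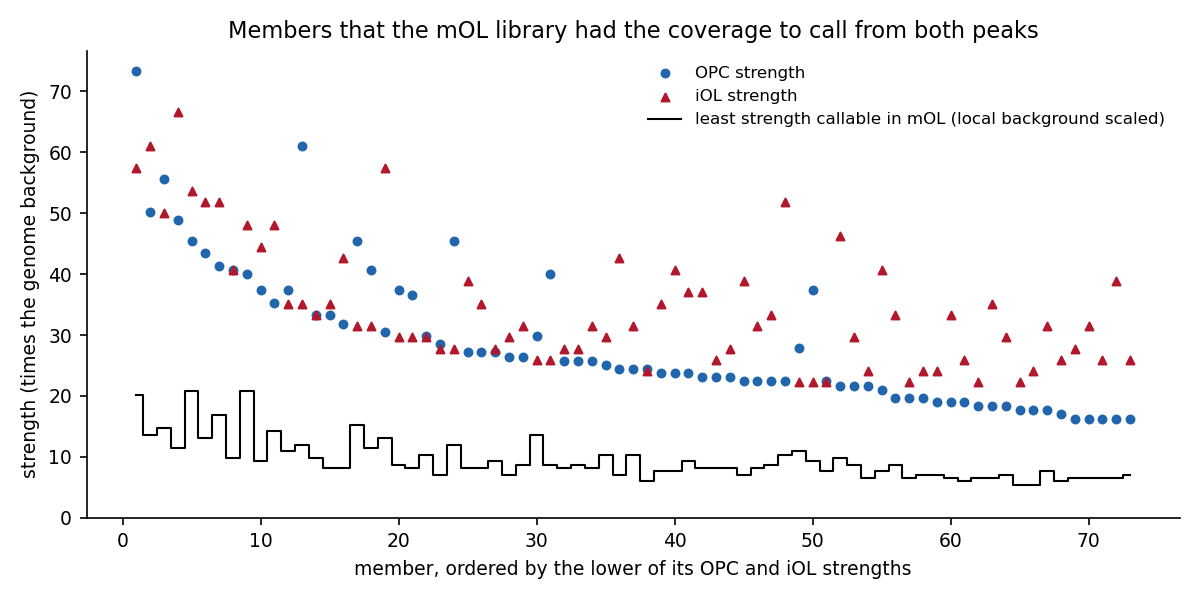
Strength in OPC (blue circles) and iOL (red triangles) of the 73 members that the mOL library could have called from both peaks, ordered by the lower of the 2 values; the black line is the weakest strength callable in mOL at the scaled local background. All points lie above the line, whose median is 8.20, while the OPC median is 25.1 and the iOL median 31.5.

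The strongest member, by the lower of its strengths, was chr11:74453008-74454495. It had 108 fragments in OPC and 31 in iOL, strengths of 73.3 and 57.4 and folds of 7.39 and 8.07, on a local OPC background 9.33 times the genome value. It had no mOL peak, but an mOL peak of 58 fragments (strength 31.7) lay 421 bases away. The next, chr3:17345916-17346776, had 74 OPC and 33 iOL fragments (strengths of 50.2 and 61.1), and the nearest mOL peak lay 2423 bases away with 61 fragments. On chr1:228813916-228814379 there were 82 OPC and 27 iOL fragments (strengths of 55.6 and 49.98), with summits 22 bases apart and an mOL peak of 46 fragments at 362 bases. These regions were strong in both earlier libraries and each had a clear mOL peak in its flank or neighbourhood.

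On chr3:89557238-89557898 there were 72 OPC and 36 iOL fragments, strengths of 48.8 and 66.6. This member had the highest lower fold as well, at 10.9 in OPC and 13.4 in iOL. An mOL peak of 32 fragments (strength 17.5) lay 44 bases from its border. The member chr2:206984686-206985172 had 67 and 29 fragments (strengths of 45.5 and 53.7), and its nearest mOL peak, of 38 fragments, lay 1011 bases away. Of the 5 strongest members, 3 lay within 500 bases of an mOL peak.

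The members of highest fold over the local background were ranked by the lower of their OPC and iOL folds. After the member on chromosome 3, chr9:10017695-10018585 had folds of 11.2 in OPC (47 fragments) and 10.8 in iOL (23 fragments), with the nearest mOL peak 3494 bases away. The member chr2:19398642-19399456 had folds of 10.5 (33 fragments) and 11.8 (21 fragments), and an mOL peak of 12 fragments lay 1 base beyond its border. A single base thus parted it from the mOL peak. The member chr4:214724733-214725255 had folds of 10.3 (36 fragments) and 13.05 (23 fragments), and the nearest mOL peak was 1699 bases off.

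On chr11:81565848-81566496 the folds were 13.2 in OPC (55 fragments) and 10.1 in iOL (24 fragments), the summits were 56 bases apart, and the nearest mOL peak, 2675 bases away, had 10 fragments, the fewest that could be called. On chr14:70012800-70013494 the folds were 10.1 (24 fragments) and 12.7 (21 fragments), and no mOL peak lay nearer than 32818 bases. These members were the ones of this ranking with the weakest and the most distant mOL neighbour. On chr1:85577999-85578999 the folds were 9.95 (40 fragments) and 10.5 (21 fragments), with an mOL peak of 15 fragments at 3845 bases. The last places were taken by chr1:247646185-247647040, chr5:168870148-168870912 and chr6:82905309-82905863, with mOL peaks of 14, 20 and 34 fragments at 225, 434 and 340 bases. In OPC and iOL they had 32 and 25, 60 and 22, and 34 and 20 fragments. Of the 10 members of highest fold, all were callable in mOL from both peaks, and 5 lay within 500 bases of an mOL peak.

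The flanks of all members were examined in the same way. The nearest mOL peak lay a median of 3548 bases away (3301 to 3873), and 206 members (12.6%, 11.0 to 14.3%) had one within 500 bases. The share was 6.61% with lists of equal length, 41.4% with 200 bases at each summit and 23.2% for members of at least 15 times the background in both libraries. Regions of OPC alone had a median of 4055 bases (3997 to 4110) and 9.25% (8.99 to 9.52%) within 500, and regions of iOL alone 4138 bases (4080 to 4194) and 8.82% (8.56 to 9.08%). With OPC strength, the share of members within 500 bases of an mOL peak rose from 6.21% (4.23 to 8.75%) under 8 to 22.1% (14.2 to 31.8%) at 20 to 30 and 31.7% (18.1 to 48.1%) at 30 to 50. Regions of OPC alone went from 7.93% (7.56 to 8.31%) to 22.2% (19.0 to 25.6%) and 20.2% (13.4 to 28.5%) over the same ranges. At matched OPC strength the intervals of the members and of regions of OPC alone overlapped in 7 of 8 ranges. The exception was 8 to 10, with 13.1% (9.81 to 17.1%) of 358 members and 8.66% (8.15 to 9.19%) of 11362 regions of OPC alone. In both kinds of region nearness to an mOL peak went with strength. These intervals also describe the lists alone, since regions of the same libraries are not replicates.

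**Figure D4:**
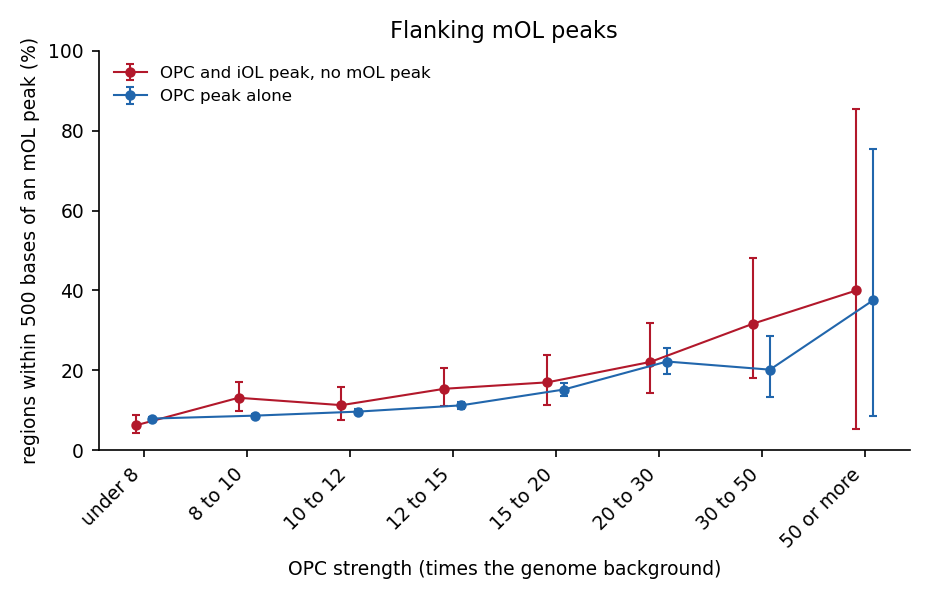
Share of regions within 500 bases of an mOL peak (%, with exact 95% intervals) by OPC strength, for members (red) and for regions with an OPC peak alone (blue). The share is 6.21% for members under 8 times the background and 31.7% at 30 to 50 times; the last range holds 5 members and 8 regions of OPC alone.

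The mOL peaks next to members had signals of their own. Over the 206 members with one within 500 bases, the nearest mOL peak had a median of 22 fragments (10 to 146) and a median strength of 12.03. It overlapped no OPC or iOL peak in 183 of the 206 cases (88.8%), and in 19 it overlapped an OPC peak alone. Most regions with an mOL peak in the lists at large likewise held no other peak, namely 141121 regions. Against these, 9723 regions held OPC and mOL peaks only, 4757 held iOL and mOL peaks only, and 4384 held peaks of every library. A lack of overlap was thus not particular to the mOL peaks beside members. In these 206 members the OPC and iOL strengths had medians of 11.5 and 18.5, against 9.50 and 14.8 in the 1433 members farther away. The local OPC background was a median of 1.25 times the genome value beside mOL peaks and at the genome value farther away. In these places Dor signal was present in the mOL library, next to the earlier site and outside its borders. Whether the site moved or the border of a wider one was drawn elsewhere cannot be told apart from peak lists alone.

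The nearest cases show this on the scale of single bases. After the member on chromosome 2 with its gap of 1 base, chr4:196593375-196594043 (13 OPC and 10 iOL fragments) lay 2 bases from an mOL peak of 21 fragments. The member chr1:127844771-127845381 (38 and 15 fragments) lay 9 bases from an mOL peak of 38 fragments. Just outside the rule, the region chr3:14010358-14011863 with 28 OPC, 10 iOL and 122 mOL fragments had an mOL overlap of 4 bases. The region chr5:14171043-14172413 had 57, 29 and 36 fragments and an overlap of 6 bases. The region chr1:33511907-33513122 had 14, 7 and 41 fragments and 7 bases. In all, 8 regions with all 3 peaks had an mOL overlap of at most 10 bases.

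The most isolated members lay far from any mOL peak. The member chr7:969192-969706 had 22 OPC and 18 iOL fragments, folds of 9.30 and 11.2 and summits 31 bases apart, and the nearest mOL peak was 82190 bases away. The member chr5:50155951-50156706 had 14 and 7 fragments, with an mOL peak at 70584 bases. The member chr3:109225154-109225944 had 9 and 8 fragments, with one at 69345 bases. Only the first of these had a peak strong enough to be callable in mOL, and only from its iOL side. Of the 73 callable members, 11 lay more than 10000 bases from an mOL peak, and 17 (23.3%, 14.2 to 34.6%) lay within 500 bases. Over all 1639 members, 1329 (81.1%) lay within 10000 bases of one and 206 (12.6%) within 500. Among the 11 distant ones, chr18:72145201-72145670 had 90 OPC and 19 iOL fragments with summits 2 bases apart and an mOL peak at 19769 bases. In chr7:2851219-2851942 the summits of 60 OPC and 17 iOL fragments fell on the same base, and the nearest mOL peak was 18940 bases away. In chr5:33346818-33348100 there were 55 and 16 fragments, and it was 54916 bases away. These last 3 were chosen after their values were seen, as cases without an mOL peak nearby. Signal in mOL below the limit of calling cannot be seen in peak lists.

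The members lay on every chromosome from 1 to 20, at 0.597 per Mb on average. Chromosome 10 was the densest, with 101 members or 0.912 per Mb, 1.53 times the mean, and the regions of all kinds were 1.35 times as dense there as on average. Chromosome 19 was the sparsest, with 24 members or 0.329 per Mb, 0.552 times the mean, while the regions of all kinds stood at 1.001 times their mean there. The share of regions with an OPC and an iOL peak that had no mOL peak was 14.1% on chromosome 19 (9.26 to 20.3%), which was 24 of 170 regions, and was below 27.2% with its whole interval. It was highest on chromosome 4, at 33.1% (28.4 to 38.0%) of 384 regions. The regions with both early peaks were stronger on chromosome 19, where their median OPC strength was 25.8, than on chromosome 4, where it was 18.3. The median over all 6023 was 21.03. Chromosome 12 had a higher median OPC strength than chromosome 19, at 27.1, and a share of 22.6%. Chromosome 13 had a lower one than chromosome 4, at 17.6, and a share of 28.6%. The part of strength in the difference between chromosomes was not tested, and the intervals are not corrected for the choice of extremes among 20 chromosomes.

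**Figure D5:**
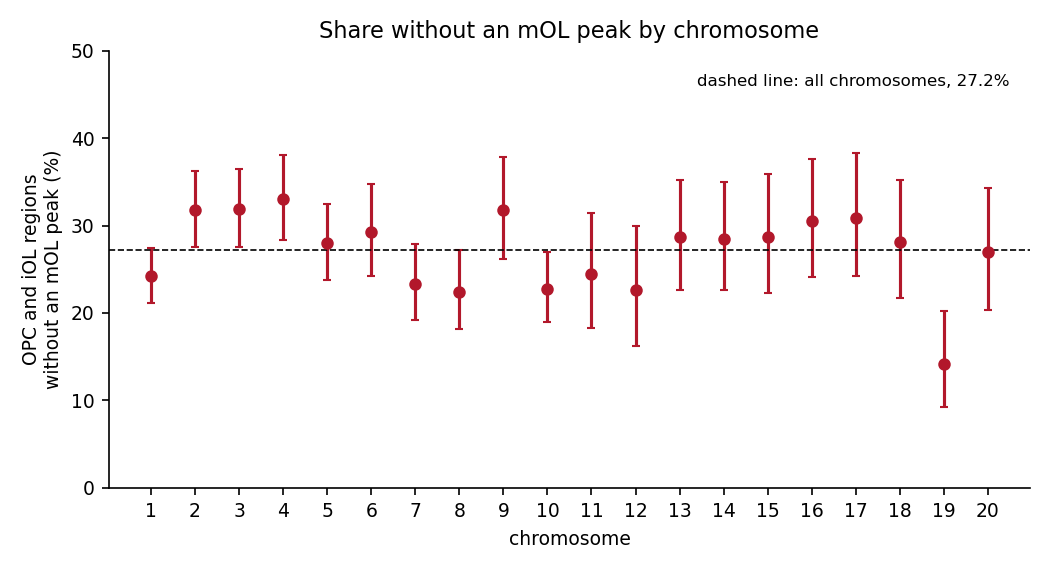
Share of regions with an OPC and an iOL peak that had no mOL peak (%, with exact 95% intervals) on each chromosome from 1 to 20; the dashed line is the share over all of them, 27.2%. Chromosome 19 lies lowest at 14.1% and chromosome 4 highest at 33.1%.

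Along the chromosomes, members were spread over many windows, and their spacing is given without that of other kinds of region. Neighbouring members were a median of 960975 bases apart, 17 pairs lay within 10000 bases, and 1170 of 2615 windows of 1 Mb with any region held a member. Of these windows, 826 held 1 member and 258 held 2. The fullest window, on chromosome 16 from 20000001 to 21000000, held 6 members among 66 OPC, 54 iOL and 105 mOL peaks and 13 regions with all 3 peaks. On chromosome 3 from 134000001 to 135000000 there were 5 members and 0 regions with all 3 peaks, among 35 OPC, 20 iOL and 69 mOL peaks. That window was the only one of the 9 with at least 5 members in which no region was kept in all 3 libraries.

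A few members formed close pairs. On chromosome 10, chr10:56152850-56153787 (41 OPC and 17 iOL fragments) and chr10:56154842-56155286 (52 and 26) were 1054 bases apart. On chromosome 17, chr17:11703931-11704400 (22 and 18 fragments) and chr17:11705530-11706251 (20 and 16) were 1129 bases apart. The closest pair, on chromosome 14 with a gap of 800 bases, was weak, with 9 and 8 fragments at chr14:59254842-59255248 and 11 and 8 at chr14:59256049-59256487. The nearest region with all 3 peaks lay a median of 180575 bases from a member, and 76 members (4.64%, 3.67 to 5.77%) had one within 10000 bases. No such distance is given here for other kinds of region. These pairs were listed by their distance after the positions were known.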

How the data were processed

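CUT&Tag libraries, 1 per stage, were read from both ends for 150 bp per read, according to the labels' protocols. MACS2 2.2.7.1, deepTools 3.5.1 and Bowtie2 2.4.4 and the build rn5 appear, without roles, in the submitters' processing notes. The deposited rows follow the narrowPeak layout: the authors' score, fold enrichment (a linear ratio), −log10 p and −log10 q and summit offset, per the labels and the files' values. Handling of duplicates: not given in the sources used here.

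Pileup and local background were solved from the deposited fold and p with a pseudocount of 1 and a Poisson tail. A whole pileup within 0.001 was found for 100% of OPC and iOL and 99.9994% of mOL peaks, and the calculation was tested on simulated data. The genome background is the lowest local background of a library. A region with several peaks of a library took its strongest. Medians carry order-statistic intervals and shares Clopper-Pearson intervals at 95%. Alternatives were stricter q or fold, lists of equal length, 50% overlap, 200 bases at each summit, a distance of 500 bases to mOL peaks, chromosome X added and other backgrounds. Scripts used Python 3.11.15, pandas 2.3.3 and scipy 1.17.1.

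The regions and the analyses were chosen with earlier results of these data known. Regions were named by rank: the 10 of highest lower fold, 5 of highest lower strength, and 3 at each end of width (widest), distance to mOL, overlap and ratio of strengths, with near misses. Gene lists and motifs were planned for rn5 and not run.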

Additional observations from a re-analysis of the deposited data

How the results depend on the processing

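No paired analysis was possible because no stage has more than 1 library. Thresholds of 15 times the background and the genome background alone were added after seeing the data. The 1639 regions fell to 768 with a −log10 q of at least 5 in OPC and iOL, 788 with it in all lists, 759 with a fold of at least 5, 805 where the overlap made up 50% of each peak and 220 at 15 times the background. The share without an mOL peak, 27.2%, became 16.5%, 17.0%, 16.7%, 25.6% and 6.14% in that order. It was 30.3% with lists of equal length, 41.3% with 200 bases at each summit and 23.8% with no mOL peak within 500 bases. The median distance of summits, 186 bases, became 174.5 with the q threshold in OPC and iOL and 153.5 at 15 times the background. It was 113 with the overlap of 50% and 85 with 200 bases at each summit. The last 2 rules limit the distance by construction more tightly than the main rule does. The 73 callable members became 47 with the overlap of 50%, 315 with 200 bases at each summit, where narrower windows overlap less, and 139 with the genome background alone. Adding chromosome X gave 1686 regions. The weakest callable iOL peak, 11.1 times its background, limits what depth can show.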

Other observations

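Chromosome X lay outside the rule. It held 47 regions with an OPC and an iOL peak and no mOL peak and 73 with all 3 peaks, so that 39.2% had no mOL peak (95% Clopper-Pearson interval 30.4 to 48.5%). The median strength of the 47 was 9.50 in OPC and 16.7 in iOL, and their median width was 653 bases.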
